A study of Mus musculus with 31 samples.

Results

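The 10 genes described here belong to the integrated stress response and to the amino acid synthesis that it feeds: Atf4, Atf5, Ddit3, Trib3, Chac1, Sesn2, Asns, Phgdh, Psat1 and Aldh18a1. They were chosen by name as listed members of the Atf4 pathway, with earlier results of these data known. Each was found by its gene identifier among the 29267 identifiers of the deposited tables. All 10 passed the filter on low counts that left 14914 genes for testing. Their levels were followed through all 31 RNA-seq libraries of the study, which profiled mouse cells under reprogramming toward pluripotency.

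All cells were of the strain 129/OG2. Reprogramming cells received the factors OKSM (Oct4, Klf4, Sox2 and Myc) and either a Flag virus or a Tet1CD virus, were kept with DMSO, Vc (vitamin C in the study's design) or DKG, and were collected at day 3 or day 8. Each of these 12 combinations has 2 libraries, numbered 0824 and 0826. Untreated embryonic fibroblasts (MEF) of passage 2 have 2 libraries with the same numbers, and embryonic stem cells (ESC) have 2, called here 0822 and 0819, with passages 17 and 19 in the labels, where the numbers of titles and files are swapped, so that the passage of each is uncertain. MEF of passage 2 kept for 3 days with DMSO, Vc or DKG, without the reprogramming factors, have 1 library each, so these have no replicate check. The labels give no dose, do not spell out DKG, Tet1CD or the library numbers, and do not say which promoter drives the viral genes. The title of the third MEF library names 2DG while its treatment field says DKG, so its compound is uncertain.

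The integrated stress response begins when kinases that sense amino acid shortage, unfolded protein in the endoplasmic reticulum, haem shortage or viral RNA phosphorylate the initiation factor eIF2. General translation then falls while translation of the Atf4 message rises, so the amount of Atf4 mRNA alone does not report the activity of the protein. Atf4 pairs with C/EBP proteins on composite sites and raises genes for amino acid synthesis, amino acid import and tRNA charging, and under strong stress Ddit3 (CHOP), Trib3 and Chac1. Serine, asparagine and proline made in this way serve protein and nucleotide synthesis in growing cells.

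Libraries held between 3953297 and 6818060 counts. The summed level of 15 fibroblast markers was 35880 and 37580 CPM (counts scaled to a common library total) in untreated MEF, 3011 to 7232 CPM at day 3 and 2644 to 8353 CPM at day 8. In these bulk samples, fewer cells of a type and less RNA per cell cannot be told apart. The ESC library 0822 held 11240 CPM of fibroblast markers against 149.5 CPM in ESC 0819, while the summed level of 12 pluripotency markers was between 2618 and 3598 CPM in both. Markers of macrophages and blood summed to 2574 CPM in MEF 0824 and 538.9 CPM in MEF 0826, to between 301.3 and 355.8 CPM in the single MEF libraries, to 203.8 and 354.6 CPM in ESC 0822 and 0819, and to between 16.84 and 148.4 CPM at day 3. At day 8 they ran from 22.97 to 1227 CPM with a median of 48.34 CPM, so that the highest library lay above MEF 0826. The part of these cell markers in the results below was not tested.

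Promoter sequences of the members were taken from RefSeq (GRCm38.p6, which is mm10), with 250 bases before and 50 after each annotated start. They were searched on both strands for the composite C/EBP-ATF motif TGATGNAA, whose reverse reads TTNCATCA. Of 32851 promoters of this length, 3.97% held a match, as did 3 of the members' 12. By gene, 4.51% of 27025 genes had a match in a promoter, and of the 10 members Trib3, Chac1 and Asns did. A match is a run of letters and not a shown binding site. No match in the other members says only that these letters were not in this window. The 3 sequences that hold a match are shown. Whether the motif bears on any difference given below was not tested. Capitals mark the motif, and each sequence runs from 5′ to 3′ on the strand of its gene.
Trib3, chr2:152344011-152344310, minus strand: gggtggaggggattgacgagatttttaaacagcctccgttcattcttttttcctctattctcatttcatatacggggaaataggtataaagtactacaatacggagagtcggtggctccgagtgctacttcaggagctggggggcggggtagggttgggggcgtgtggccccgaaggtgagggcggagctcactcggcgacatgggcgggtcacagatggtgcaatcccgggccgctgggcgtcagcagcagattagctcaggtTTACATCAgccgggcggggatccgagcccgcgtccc
Chac1, chr2:119350992-119351291, plus strand: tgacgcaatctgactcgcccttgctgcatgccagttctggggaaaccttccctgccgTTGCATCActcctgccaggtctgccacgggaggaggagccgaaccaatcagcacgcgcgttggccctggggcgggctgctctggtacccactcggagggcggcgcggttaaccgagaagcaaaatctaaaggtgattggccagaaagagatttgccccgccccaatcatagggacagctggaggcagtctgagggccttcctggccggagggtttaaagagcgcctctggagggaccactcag
Asns, chr6:7693160-7693459, minus strand: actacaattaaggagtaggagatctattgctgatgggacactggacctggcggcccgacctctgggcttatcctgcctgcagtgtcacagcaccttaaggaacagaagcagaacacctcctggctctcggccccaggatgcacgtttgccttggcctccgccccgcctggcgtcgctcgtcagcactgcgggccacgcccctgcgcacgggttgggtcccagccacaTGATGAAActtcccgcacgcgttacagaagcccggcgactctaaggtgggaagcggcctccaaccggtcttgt

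On the length-scaled TPM scale, Atf4 and Phgdh led in untreated fibroblasts, and the stress genes Trib3 and Chac1 had the lowest mean or median in untreated MEF, at both days and in ESC. Single libraries departed from that order: Trib3 was above Sesn2 in MEF kept with DMSO (72.43 and 52.89 TPM) or DKG, and above Atf5 in ESC 0819. In untreated MEF the mean TPM was 347.2 for Atf4, 344.6 for Phgdh, 287.0 for Atf5, 212.8 for Psat1, 174.6 for Ddit3, 143.8 for Asns, 92.48 for Aldh18a1, 58.84 for Sesn2, 38.11 for Trib3 and 35.6 for Chac1. At day 3 the median TPM over 12 libraries ran from 254.2 for Psat1 and 239.5 for Atf4 down to 3.095 for Chac1 and 2.34 for Trib3, with Ddit3 at 29.56. At day 8 Atf4 led with a median of 309.1 TPM, followed by Psat1 with 207.3 TPM and Phgdh with 141.2 TPM. In ESC the leading member was Asns, with a mean of 585.9 TPM, ahead of Atf4 with 281.3 TPM. From here on, levels are CPM with scaled library sizes (TMM), which serve to compare 1 gene between libraries.

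**Figure D1:**
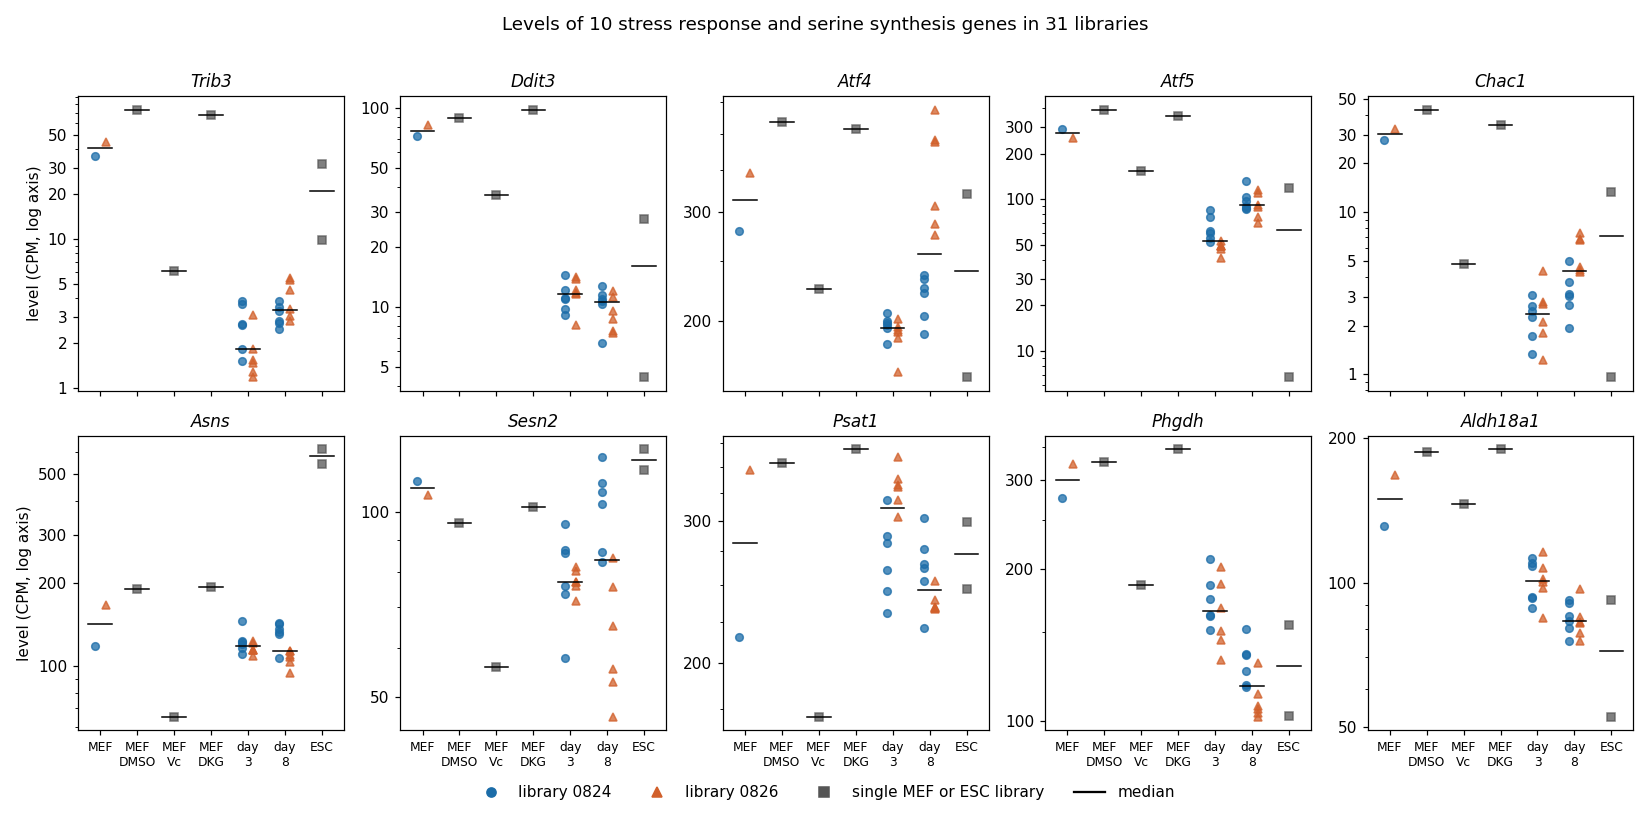
Level of each of the 10 members in all 31 libraries, in CPM on a log axis, by class: untreated MEF, single MEF libraries with DMSO, Vc or DKG, the 12 libraries of day 3, the 12 of day 8, and ESC. Circles are libraries 0824, triangles 0826 and squares the single MEF and ESC libraries, and lines are class medians; Trib3 lay between 1.17 and 5.483 CPM in all 24 reprogramming libraries and at 36.32 and 45.01 CPM in untreated MEF.

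The first question was how the members differed between starting fibroblasts and cells under reprogramming. At day 3, 7 of the 10 members were lower than in untreated MEF and none was higher, with Trib3, Chac1, Ddit3 and Atf5 lower by between 4.84 and 18.4-fold. Over all tested genes, 21.7% were called lower and 20.1% higher in this comparison (edgeR quasi-likelihood test, Benjamini-Hochberg adjusted p under 0.05). The median log2 difference was -0.77 over the members and 0.05 over all tested genes. At day 8, 6 of 10 were lower and none higher, against 22.5% of all genes called lower and 23.1% higher, with medians of -1.07 and 0.07. Both comparisons use the same 2 MEF libraries. Both MEF libraries lay above all day 3 libraries for 8 members and 25.4% of all genes, and below them for no member and 24.6%. Against day 8 they lay above for 6 members and 21.8% of all genes, and below for no member and 22.6%. Adjusted p-values below are from the same test, and log2 differences are given ± SE.

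Atf4 (chr15:80255184-80257541, plus strand), the transcription factor at the head of the programme, fell at day 3 and was not called at day 8. Its level was 279.7 CPM in MEF 0824 and 346.7 CPM in MEF 0826, against 165.6, 195.0 and 206.4 CPM as lowest, median and highest of day 3, and 190.7, 256.0 and 437.6 CPM at day 8. Both MEF libraries lay above all libraries of day 3 and inside the range of day 8. The difference from MEF was -0.70 ± 0.246 at day 3 (adjusted p = 0.0292) and -0.15 ± 0.257 at day 8 (adjusted p = 0.671). The day 3 call was lost without MEF 0824 (-0.85, adjusted p = 0.0814) or without MEF 0826 (-0.53, adjusted p = 0.289), and with limma on log2(TPM + 1) (-0.54, adjusted p = 0.0966).

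Atf5 (chr7:44812256-44816658, minus strand), a related factor that is itself translated under stress, fell at both days. It was at 292.2 and 253.9 CPM in MEF 0824 and 0826, at 41.1, 52.91 and 84.84 CPM as lowest, median and highest of day 3, and at 70.11, 91.62 and 132.7 CPM at day 8. The MEF libraries did not overlap either day. The differences were -2.28 ± 0.408 at day 3 (adjusted p = 0.00025) and -1.51 ± 0.426 at day 8 (adjusted p = 0.00754). At day 8 the call was lost without MEF 0824 (-1.41, adjusted p = 0.089) and with limma on TPM (-1.38, adjusted p = 0.0505).

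Ddit3 (chr10:127290774-127296288, plus strand) encodes CHOP, which acts downstream of Atf4 under prolonged stress. It fell from 72.21 and 81.82 CPM in MEF 0824 and 0826 to 8.126, 11.65 and 14.4 CPM as lowest, median and highest of day 3, and to 6.558, 10.51 and 12.65 CPM at day 8. All 24 reprogramming libraries lay below both MEF libraries. The differences were -2.75 ± 0.294 at day 3 (adjusted p = 1.93e-06) and -2.96 ± 0.292 at day 8 (adjusted p = 7.6e-07). Ddit3 overlaps Mars on the opposite strand, and no counting strand is stated, so its counts are uncertain to that extent. It also overlaps another Ddit3 identifier on the same strand, which the deposited tables lack. Atf5 overlaps Il4i1 on the opposite strand, but that gene never had more than 13.1 counts. Atf5 also overlaps an identifier of Nup62 on the opposite strand that the deposited tables lack, so the counts of Atf5 are uncertain too.

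Trib3 (chr2:152337422-152344032, minus strand) encodes a pseudokinase that restrains Atf4 and Ddit3 in a feedback loop, and it showed the largest fold of the 10. It was at 36.32 and 45.01 CPM in MEF 0824 and 0826, at 1.17, 1.811 and 3.839 CPM as lowest, median and highest of day 3, and at 2.488, 3.318 and 5.483 CPM at day 8. No reprogramming library came near the MEF level. The differences were -4.21 ± 0.345 at day 3 (adjusted p = 1.35e-07), a fold of 18.4, and -3.51 ± 0.344 at day 8 (adjusted p = 7.18e-07), a fold of 11.4. Counts behind the day 3 levels were few, between 5 and 20 per library.

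Chac1 (chr2:119351229-119354381, plus strand), an enzyme that degrades glutathione, followed the same course. It was at 28.03 and 32.81 CPM in MEF 0824 and 0826, at 1.235, 2.357 and 4.346 CPM as lowest, median and highest of day 3, and at 1.929, 4.329 and 7.434 CPM at day 8. The MEF libraries again stood apart from all 24. The fall was 13.1-fold at day 3 (log2 -3.72 ± 0.465, adjusted p = 8.17e-06) and 6.84-fold at day 8 (adjusted p = 0.000126).

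Sesn2 (chr4:132492032-132510501, minus strand), a leucine sensor that restrains the growth kinase complex mTORC1, differed less. It was at 112.1 and 106.6 CPM in MEF 0824 and 0826, at 57.93, 76.85 and 95.59 CPM as lowest, median and highest of day 3, and at 46.43, 83.5 and 122.7 CPM at day 8. MEF lay above all day 3 libraries and inside the day 8 range. The test without a block did not call it at day 3 (-0.49 ± 0.242, adjusted p = 0.114) or day 8 (-0.41 ± 0.243, adjusted p = 0.183). With the library number as a block within each day it was called lower at both (-0.49 ± 0.109, adjusted p = 0.00118 at day 3 and adjusted p = 0.00201 at day 8), where 27.4% and 28.1% of all genes were called lower. The block over all days called it at day 3 (adjusted p = 0.0441, 24.1% of all genes lower).

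In the test without a block, the enzymes of the first step of serine synthesis and of proline synthesis fell, while the enzymes of asparagine synthesis and of the next serine step showed no call. Phgdh (chr3:98313170-98339990, minus strand) takes the first step from glycolysis to serine. It was at 277.4 and 324.1 CPM in MEF 0824 and 0826, at 132.4, 165.0 and 209.3 CPM as lowest, median and highest of day 3, and at 101.8, 117.3 and 152.3 CPM at day 8. MEF overlapped neither day. The differences were -0.84 ± 0.142 at day 3 (adjusted p = 0.000141) and -1.31 ± 0.137 at day 8 (adjusted p = 1.29e-06).

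Psat1 (chr19:15904678-15947337, minus strand), the transaminase that follows Phgdh, was at 215.1 CPM in MEF 0824 and 347.7 CPM in MEF 0826. Its lowest, median and highest levels were 230.5, 311.1 and 360.2 CPM at day 3 and 221.1, 245.9 and 303.0 CPM at day 8. The 2 MEF libraries spanned most of the reprogramming range. The differences were 0.09 ± 0.168 at day 3 (adjusted p = 0.715) and -0.16 ± 0.165 at day 8 (adjusted p = 0.454).

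Asns (chr6:7675169-7693254, minus strand), asparagine synthetase, was at 118.7 CPM in MEF 0824 and 166.2 CPM in MEF 0826. It ran from 108.8 to 145.3 CPM at day 3 and from 94.0 to 143.0 CPM at day 8, with medians of 118.1 and 113.5 CPM. The ranges overlapped. Its difference was -0.26 ± 0.148 at day 3 (adjusted p = 0.175) and -0.25 ± 0.148 at day 8 (adjusted p = 0.181), and the block within each day gave an adjusted p of 0.0499 at day 8. Without MEF 0826 the day 8 difference was 0.02.

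Aldh18a1 (chr19:40550257-40588463, minus strand), which makes the precursor of proline, was at 131.0 and 167.6 CPM in MEF 0824 and 0826. Its lowest, median and highest levels were 84.45, 101.1 and 116.1 CPM at day 3 and 75.56, 83.05 and 97.13 CPM at day 8. Both days lay below both MEF libraries. It fell by 0.57 ± 0.141 at day 3 (adjusted p = 0.00344) and by 0.82 ± 0.138 at day 8 (adjusted p = 0.000123). The day 3 call was lost without MEF 0826 (-0.37, adjusted p = 0.176) and with limma on TPM (-0.35, adjusted p = 0.0881).

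**Figure D2:**
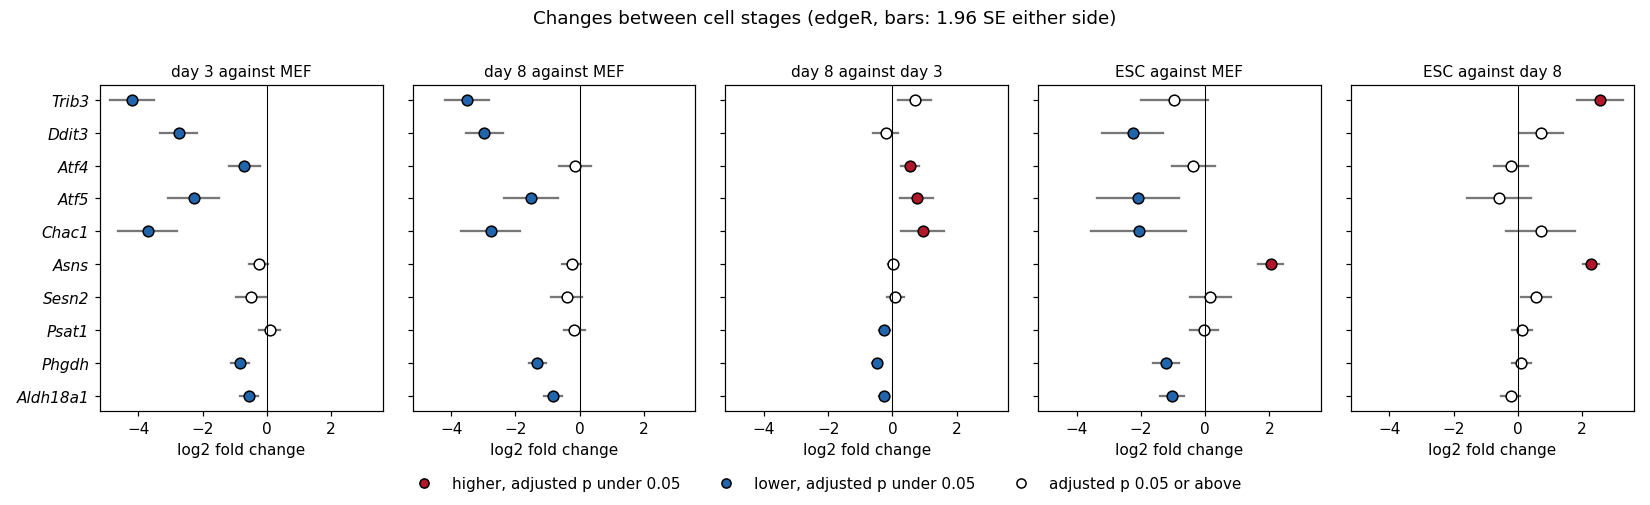
Log2 difference of each member in 5 comparisons of stages, with bars as 95% intervals from the SE; filled points passed an adjusted p of 0.05 in edgeR's quasi-likelihood test. Trib3, Chac1, Ddit3 and Atf5 lie farthest below 0 against MEF at both days, and Asns lies above 0 in both comparisons of ESC.

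Between day 3 and day 8, 3 members rose, 3 fell and 4 were not called. Atf4 (0.55 ± 0.14, adjusted p = 0.00809), Atf5 (0.76 ± 0.261, adjusted p = 0.0399) and Chac1 (0.94 ± 0.337, adjusted p = 0.0485) rose, while Phgdh (-0.47 ± 0.082, adjusted p = 0.000469), Psat1 (-0.25 ± 0.089, adjusted p = 0.0476) and Aldh18a1 (-0.25 ± 0.079, adjusted p = 0.0257) fell. The background was 14.4% of genes called higher and 10.7% called lower. Matched by virus, medium and library number, Phgdh and Aldh18a1 were lower at day 8 in 12 of 12 pairs, Atf5 and Chac1 higher in 12 of 12, Atf4 higher in 11 and Psat1 lower in 10. Shares of all genes with such pair counts were not computed, and pairs share the differences between library numbers, so these counts cannot be weighed. No member's libraries separated the days completely. Among all tested genes, 0.483% had every day 3 library above every day 8 library, and 1.65% the reverse. Ddit3 (-0.21 ± 0.199, adjusted p = 0.474), Sesn2 (adjusted p = 0.71) and Asns (adjusted p = 0.976) were not called. Trib3 was higher in 9 of 12 pairs and not called (0.70 ± 0.26, adjusted p = 0.0576), though the block within each day called it (0.73, adjusted p = 0.0278, 20.9% of all genes higher). So did DESeq2 (adjusted p = 0.0392), DESeq2's size factors in edgeR (adjusted p = 0.0497) and the fit without ESC (adjusted p = 0.0267).

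Only Atf4 and Phgdh kept these calls when any 1 of the 24 reprogramming libraries was left out. Psat1 lost its call in 18 of 24 cases, with adjusted p between 0.051 and 0.112. Atf5 lost it in 20 cases, between 0.0504 and 0.0869, and kept it without the 0824 library of day 3 Flag DKG, day 3 Tet1CD Vc, day 3 Tet1CD DKG or day 8 Flag DKG. Chac1 lost it in 21 cases, between 0.0551 and 0.139, and kept it without the 0824 library of day 8 Flag DMSO, Vc or DKG. Aldh18a1 lost it in 3 cases, between 0.0531 and 0.0649, namely without day 3 Tet1CD Vc 0824, day 8 Flag Vc 0826 or day 8 Flag DKG 0826. Leaving out 1 library cannot show whether a change lies mostly in 1 library number. Mean Atf4 went from 196.9 CPM at day 3 to 218.8 CPM at day 8 in 0824, and from 189.3 to 347.4 CPM in 0826. Mean Phgdh went from 174.3 to 130.7 CPM in 0824 and from 164.1 to 110.3 CPM in 0826.

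At day 8 the library number separated some members more than virus or medium did. Atf4 ranged from 190.7 to 236.9 CPM in the 6 libraries 0824 and from 275.1 to 437.6 CPM in the 6 libraries 0826, higher in 0826 in 6 of 6 groups by a median log2 difference of 0.70. No 0824 library reached the lowest 0826 library, a separation in this direction seen in 11.5% of all tested genes. Sesn2 went the other way, from 82.89 to 122.7 CPM in 0824 and from 46.43 to 84.11 CPM in 0826, lower in 6 of 6 groups by a median of -0.68. Asns and Phgdh were also lower in 0826 in 6 of 6 groups, Asns by a median of -0.32. At day 3 Atf5 was lower and Psat1 higher in 0826 in 6 of 6 groups. The labels do not say what the numbers stand for. Shares of all genes with the same direction in 6 of 6 groups were not computed, so those counts cannot be weighed.

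In ESC, asparagine synthetase stood far above all other cells, and the stress genes were split between the 2 libraries. Of the 10 members, 1 was higher in ESC than in MEF (26.8% of all genes called higher) and 5 were lower (25.7% called lower). Asns was at 545.9 CPM in ESC 0822 and 616.2 CPM in ESC 0819, against at most 194.4 CPM in any other library. Its rise over MEF was 4.1-fold (adjusted p = 8.08e-07) and over day 8 4.87-fold (adjusted p = 2.46e-10). Both ESC libraries lay above both untreated MEF libraries in 35.1% of all genes, above all of day 3 in 23.4% and above all of day 8 in 20.8%. The share above every other library was not computed. Phgdh fell from MEF to 155.3 CPM in ESC 0822 and 102.2 CPM in ESC 0819 (adjusted p = 0.000117). Aldh18a1 fell to 91.82 and 52.51 CPM (-1.04 ± 0.196, adjusted p = 0.000343). Both enzymes lay below both MEF libraries in ESC, as did 38.9% of all genes. Psat1, at 299.5 and 246.7 CPM, showed no call (adjusted p = 0.904), nor did Atf4, at 319.7 and 162.3 CPM (adjusted p = 0.377), or Sesn2, at 116.7 and 126.3 CPM (adjusted p = 0.7).

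The stress genes differed widely between ESC 0822, which also held the fibroblast markers, and ESC 0819. Ddit3 was at 27.57 CPM in ESC 0822 and 4.408 CPM in ESC 0819, Atf5 at 119.6 and 6.708 CPM, and Chac1 at 13.39 and 0.9583 CPM. ESC 0819 was the lower one for each of the 3. Trib3 was at 31.84 and 9.775 CPM in the same order. Both of its values lay below MEF (38.9% of all genes) and above every library of day 3 (23.4%) and of day 8 (20.8%).

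Against MEF, Ddit3 (adjusted p = 0.000957), Atf5 (-2.10 ± 0.653, adjusted p = 0.0124) and Chac1 (-2.07 ± 0.751, adjusted p = 0.0281) were lower in ESC, and Trib3 was not called (adjusted p = 0.144). Without ESC 0822 the differences were -4.13 for Ddit3, -5.36 for Atf5 and -4.97 for Chac1. Without ESC 0819 they were -1.47 (adjusted p = 0.000954), -1.18 (adjusted p = 0.00619) and -1.17 (adjusted p = 0.163). The Chac1 call was also lost without MEF 0824 (adjusted p = 0.0624) or MEF 0826 (adjusted p = 0.0902). The part of fibroblast RNA in ESC 0822 in these differences was not tested.

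Against day 8, Trib3 and Asns were higher in ESC and no member was lower, with 27.6% of all genes called higher and 24.3% lower. Trib3 was 5.87-fold higher (2.55 ± 0.363, adjusted p = 1.56e-05), with 1.44 without ESC 0822 (adjusted p = 0.0131) and 3.17 without ESC 0819 (adjusted p = 6.33e-06). Which members were called in this comparison depended on which ESC library was kept. Sesn2 was not called (0.57 ± 0.24, adjusted p = 0.0552), but the block over all days called it (0.60, adjusted p = 0.012, 30.4% of all genes higher), as did the block within each day (0.61, adjusted p = 0.000109, 33.5% of all genes higher) and DESeq2 (adjusted p = 0.0343).

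The single MEF libraries show the programme in fibroblasts kept with a compound. All 10 members were lower with Vc than with DMSO, 6 of them by over 2-fold, while 3.97% of all tested genes were over 2-fold lower and 4.65% over 2-fold higher. The median log2 difference, on log2(CPM + 0.5), was -1.16 over the members and 0.002 over all tested genes. These are differences between 1 library and 1 other, with no test of the compound, and the intervals given below cover counting error only. Because the members were chosen with earlier results known, their counts beside those of all genes are a description.

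Trib3 was at 73.82 CPM with DMSO, 6.112 CPM with Vc and 67.47 CPM with DKG. The Vc level rests on 23 counts against 387 with DMSO, a ratio of 0.0828 (95% interval 0.0519 to 0.126), and only 10 genes of all tested had a lower log2 difference. Chac1, at 42.92, 4.783 and 34.7 CPM in the same order, gave a ratio of 0.111 (0.0649 to 0.18), from 18 and 225 counts. For both genes the Vc library lay below every other MEF library, untreated ones included.

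Asns was at 190.8 CPM with DMSO, 65.1 CPM with Vc and 194.4 CPM with DKG, a Vc ratio of 0.341 (0.296 to 0.393). Atf5 was at 390.3, 153.3 and 352.5 CPM in that order, with a ratio of 0.393 (0.358 to 0.431). Ddit3 was at 88.89, 36.67 and 98.03 CPM, with a ratio of 0.413 (0.339 to 0.5). In each of the 3 the DKG library lay beside the DMSO library and the Vc library lay below both untreated MEF libraries.

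Psat1 was at 354.2 CPM with DMSO, 171.1 CPM with Vc and 368.5 CPM with DKG, a Vc ratio of 0.483 (0.441 to 0.529). Atf4 itself was at 418.5, 225.3 and 407.6 CPM, with a ratio of 0.538 (0.497 to 0.583). Phgdh was at 326.8, 185.7 and 345.9 CPM, with a ratio of 0.568 (0.52 to 0.621). Differences of Atf4 and Phgdh, like those of Sesn2 and Aldh18a1, stayed under 2-fold. Sesn2 was at 95.95, 56.07 and 101.9 CPM, with a ratio of 0.584 (0.495 to 0.688), and Aldh18a1 at 186.8, 145.9 and 189.5 CPM, with a ratio of 0.781 (0.702 to 0.868).

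Part of the distance between Vc and DMSO lay on the DMSO side, since 9 of 10 members were higher with DMSO than in untreated MEF. These differences ran from -0.19 to 0.85, the highest for Trib3, and none passed 2-fold (1.4% of all genes were over 2-fold higher). Against the mean of untreated MEF, Vc was still lower for all 10, though Aldh18a1 hardly differed (-0.03). Its 145.9 CPM with Vc lay between the untreated libraries, at 131.0 and 167.6 CPM. The difference was over 2-fold for Trib3 (-2.64), Chac1 (-2.55), Asns (-1.12) and Ddit3 (-1.06), with 5.2% of all genes over 2-fold lower. With DKG, members differed from DMSO by between -0.30 for Chac1 and 0.14 for Ddit3. None passed 2-fold, against 1.97% of all genes lower and 1.47% higher. These comparisons share libraries. The sum of fibroblast markers was 43260 CPM with DMSO, 51700 CPM with Vc and 41330 CPM with DKG, and its part in the differences was not tested.

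**Figure D3:**
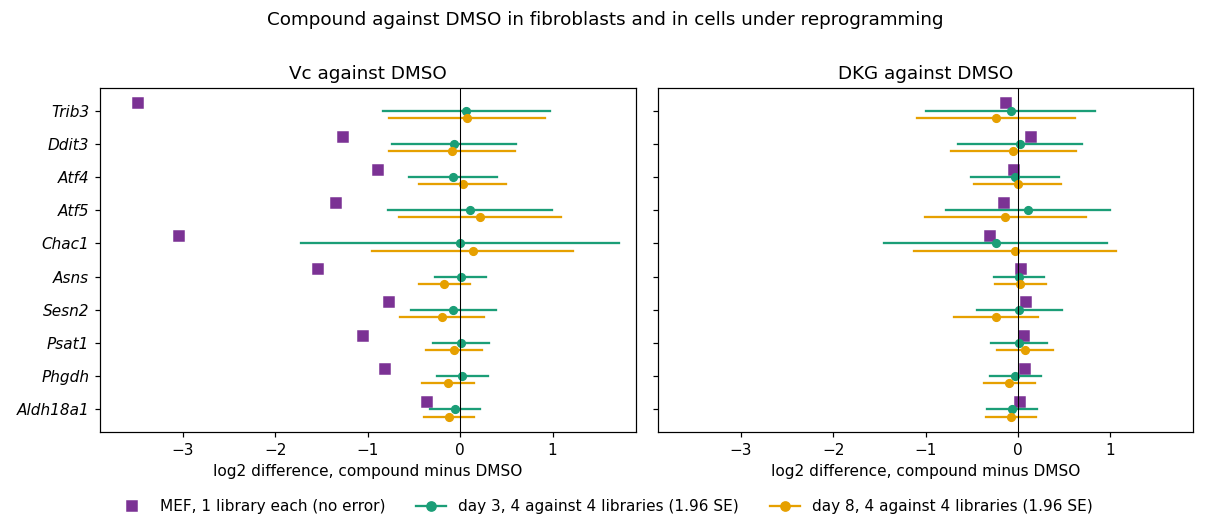
Log2 difference of each member from DMSO, for Vc and for DKG: purple squares are the single MEF libraries, green and yellow points are reprogramming cells at day 3 and day 8 with bars as 95% intervals from the SE. The Vc bars of Chac1 and Asns at day 3 rest on an unreliable SE. In MEF with Vc all 10 members lie below 0, down to -3.49 for Trib3, and the Vc points of reprogramming cells, averaged over virus, lie between -0.20 and 0.21.

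In reprogramming cells, averaged over the Flag and Tet1CD viruses, no member was called for Vc against DMSO at either day. None had an unadjusted p under 0.05 in edgeR's quasi-likelihood test. The members' differences ran from -0.08 to 0.10 at day 3 and from -0.20 to 0.21 at day 8. Over all genes, 0.121% were called in either direction at day 3 and 0.201% at day 8, and DESeq2, limma and both blocks called no member either. The 95% interval of the Vc difference, from its SE, at day 3 was -0.84 to 0.97 for Trib3 and -0.735 to 0.607 for Ddit3. These leave out the differences seen in the single MEF libraries, but Trib3 rests on few counts and Ddit3 went opposite ways with the 2 viruses. The interval ran from -0.27 to 0.28 for Asns, and from -1.72 to 1.72 for Chac1, the widest. Both of these differences were very small, where an SE taken as the difference over the square root of F is unreliable. Nothing is drawn from the intervals of Asns and Chac1. The average over virus hid opposite directions of the group means for Ddit3 and Chac1 at both days, and for other members at 1 day or both. In Flag cells the mean of Ddit3 was 8.621 CPM with Vc against 11.35 CPM with DMSO at day 3, and 7.596 against 11.45 CPM at day 8. In Tet1CD cells it was 14.22 against 11.76 CPM and 11.9 against 8.93 CPM. Chac1, with few counts, was at 2.019 CPM with Vc against 3.399 CPM with DMSO in Flag cells at day 3, and 4.681 against 5.243 CPM at day 8. In Tet1CD cells it was at 2.939 against 1.748 CPM and 4.798 against 3.651 CPM. The Vc effect in Tet1CD cells minus that in Flag cells ran from -0.32 to 1.51 over the members at day 3. At day 8 it ran from -0.19 to 1.01, and no member was called at either day. The difference between the response of MEF and that of reprogramming cells was not tested, since MEF with each compound have 1 library.

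Set against the MEF library kept with the same compound, the 2 libraries of day 3 Flag cells were lower by over 2-fold for Trib3, Ddit3, Atf4, Atf5 and Chac1 with DMSO (14.3% of all genes). With Vc the same comparison gave 4 members over 2-fold lower (18.0% of all genes), namely Ddit3 (-2.03), Atf5 (-1.61), Trib3 (-1.37) and Chac1 (-1.07), while 4 members were higher, Asns and Psat1 by 0.99 each. With DKG the lowest difference was -4.46. The difference was -4.93 with DMSO and -1.37 with Vc for Trib3, and -3.48 and -1.07 for Chac1, whose MEF levels were low with Vc.

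For DKG against DMSO in reprogramming cells, also averaged over virus, members' differences ran from -0.24 to 0.10 at day 3 and from -0.24 to 0.08 at day 8. No member and no other gene (0.0% of all) was called by edgeR or DESeq2 at either day. By edgeR, 52 of all tested genes at day 3 and 86 at day 8 had an unadjusted p under 0.05, and none of them was a member.

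Tet1CD against Flag called no member in the test without a block, while 0.697% of all genes were called in either direction at day 3 and 1.76% at day 8. At day 8 Sesn2 was at 122.7 and 84.11 CPM with Flag and DMSO in 0824 and 0826, at 111.3 and 75.54 CPM with Flag and Vc, and at 107.7 and 65.23 CPM with Flag and DKG. With Tet1CD it was at 103.0 and 55.61 CPM with DMSO, 86.13 and 46.43 CPM with Vc, and 82.89 and 52.93 CPM with DKG. Within each number, all 3 Tet1CD libraries lay below all 3 Flag libraries, and the share of all genes in that order was not computed. The difference was -0.41 ± 0.191 (adjusted p = 0.402) without a block and -0.43 ± 0.087 (adjusted p = 0.00582) with the block within each day, where 3.47% of all genes were called lower. The change of this Tet1CD effect from day 3 to day 8 was -0.53 ± 0.122 for Sesn2 with that block (adjusted p = 0.0287, 0.885% of all genes called lower) and was not called without it (no member had an adjusted p below 0.847, with 0.295% of all genes called).

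Atf4 at day 8 was also lower with Tet1CD in 6 of 6 matched pairs, but its difference of -0.37 ± 0.197 was not called with any block (adjusted p = 0.477 without one). At day 3, Psat1, Phgdh and Aldh18a1 were each lower with Tet1CD in 6 of 6 pairs. Phgdh had the lowest unadjusted p of the 3, with -0.31 ± 0.115 and an adjusted p of 0.424. With Flag, Phgdh at day 3 was at 174.7 and 186.7 CPM with DMSO, 209.3 and 202.1 CPM with Vc, and 186.1 and 167.5 CPM with DKG in 0824 and 0826. With Tet1CD it was at 161.8 and 150.9, 151.2 and 132.4, and 162.6 and 144.9 CPM in the same order. All 6 Tet1CD values lay below all 6 Flag values, though Phgdh was not called. The shares of all genes separated in this way, or lower in 6 of 6 pairs, were not computed, so neither count can be weighed.

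Genes around the members were described through 9 lists, 119 genes in all: Atf4-associated genes and the pathways they belong to, eIF2 kinases and initiation factors, chaperones and the other arms of the unfolded protein response, and p53 targets. The lists too were written with earlier results of these data known, so their counts are a description. In MEF with Vc against DMSO, the genes over 2-fold lower numbered 4 of 12 amino acid transporters, 5 of 15 other Atf4-associated genes, 3 of 10 feedback regulators and transcription factors, 3 of 13 serine, glycine and one-carbon enzymes and 3 of 18 tRNA synthetases, where the share over all genes was 3.97%. None passed in the lists of eIF2 kinases and initiation factors, proline and arginine enzymes, chaperones of the endoplasmic reticulum or p53 targets. The list medians were -0.95 for transporters, -0.72 for other Atf4-associated genes, -0.58 for tRNA synthetases and -0.03 for the chaperones, against 0.002 over all genes.

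The glycine transporter Slc6a9 was at 7.175 CPM with Vc and 40.82 CPM with DMSO, a log2 difference of -2.43. The cystine transporter Slc7a11 was at 5.846 and 27.47 CPM (-2.14), and the leucine transporter Slc7a5 at 81.58 and 297.8 CPM (-1.86). The mitochondrial folate enzyme Mthfd2 was at 35.87 and 138.3 CPM (-1.93). With DKG against DMSO, no gene of the 9 lists passed 2-fold.

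From MEF to day 3 these lists did not move as one. Of 17 genes of the chaperone list, 13 fell and none rose (median -0.69), among them Dnajb9 (40.8 ± 3.62 to 18.4 ± 3.53 CPM, mean ± SD), Xbp1 (127.0 ± 7.12 to 59.8 ± 9.22 CPM) and Calr (adjusted p = 1.38e-05). Over all genes 20.1% rose and 21.7% fell. Of 13 serine, glycine and one-carbon enzymes, 7 rose and 3 fell, the latter a share near that of all genes. The mitochondrial folate enzyme Aldh1l2 fell from 159.0 ± 40.1 to 8.49 ± 2.14 CPM (-4.23 ± 0.27, adjusted p = 7.02e-09), while the cytosolic serine enzyme Shmt1 rose from 14.6 ± 1.71 to 70.8 ± 13.1 CPM (2.26 ± 0.17, adjusted p = 4.21e-08). So the serine list held the most rises of the 9 while Phgdh fell.

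Of 9 proline and arginine enzymes 3 rose and 3 fell at day 3. Pycr1, which makes proline after Aldh18a1, fell from 29.9 ± 1.07 to 6.43 ± 1.68 CPM, and Prodh, which degrades proline, rose from 0.831 ± 0.326 to 19.6 ± 4.39 CPM. Of 12 transporters 2 rose and 5 fell, with Slc1a5, a glutamine transporter, at 29.3 ± 7.21 in MEF and 107.0 ± 9.39 CPM at day 3. Of 18 tRNA synthetases 4 rose and 6 fell, and of 15 other Atf4-associated genes 4 rose and 6 fell. The 2 transporters and 4 synthetases that rose are shares near the 20.1% of all genes called higher, and 21.7% of all genes were called lower. Pck2, a mitochondrial enzyme of gluconeogenesis, fell from 104.0 ± 12.1 to 18.7 ± 3.17 CPM. Of 10 feedback regulators and transcription factors 2 fell, Jdp2 (-2.24) and Ppp1r15a (-1.02), the latter a phosphatase subunit that ends eIF2 phosphorylation, and of 12 p53 targets 2 fell.

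Between day 3 and day 8, 4 of 10 feedback regulators and transcription factors rose and none fell, with Atf3 (1.64 ± 0.48, adjusted p = 0.0175) and Cebpb (1.14 ± 0.38, adjusted p = 0.0362) ahead, where 14.4% of all genes rose and 10.7% fell. Pycr1 rose by 1.25 ± 0.13 (adjusted p = 4.21e-06) and Slc7a11 from 14.5 ± 7.82 to 40.9 ± 9.84 CPM. Cth, which makes cysteine, rose from 60.6 ± 29.1 to 153.0 ± 43.4 CPM. None of the 13 serine list genes rose and 2 fell. In ESC against day 8, 8 of 18 tRNA synthetases and 7 of 13 serine list genes were higher, with none and 1 lower, against 27.6% of all genes higher and 24.3% lower. The glycine decarboxylase Gldc was at 77.1 ± 7.11 CPM in ESC and 5.34 ± 1.87 CPM at day 8 (3.91 ± 0.24, adjusted p = 5.87e-10). Neither Vc nor DKG gave a call in any of the 9 lists in reprogramming cells at either day.

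**Figure D4:**
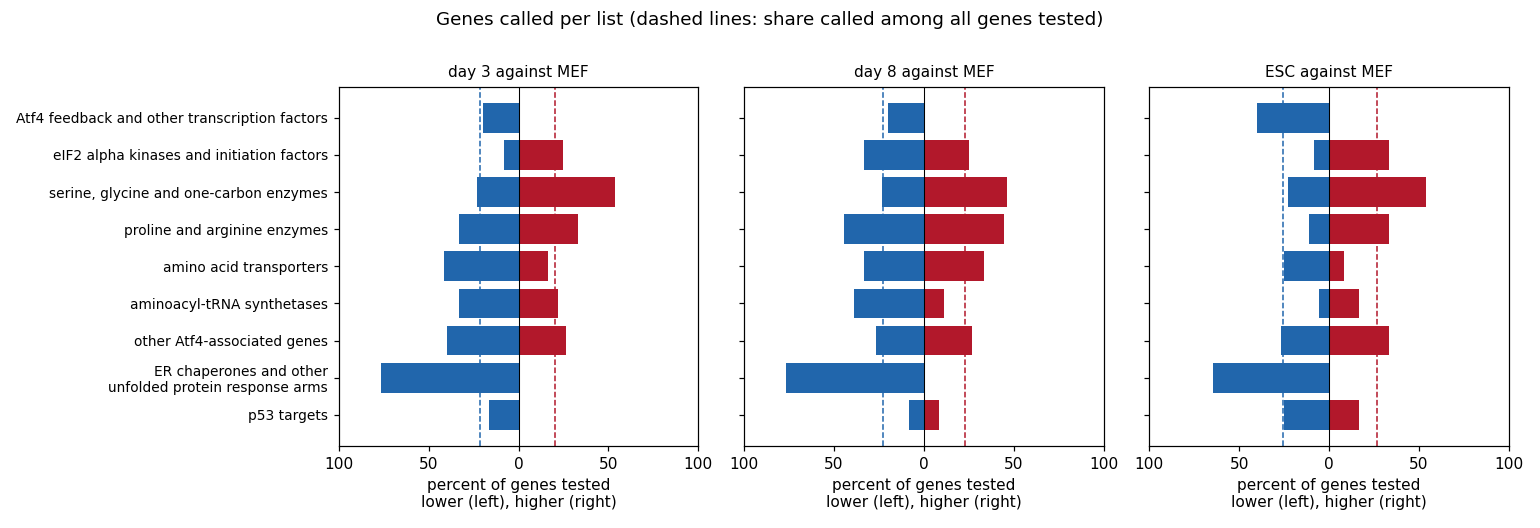
Percent of tested genes of each of the 9 lists called higher or lower in day 3 against MEF, day 8 against MEF and ESC against MEF, with the share over all genes as dashed lines. The list of endoplasmic reticulum chaperones has 13 of 17 genes called lower and none higher at day 3, and the serine list has 7 of 13 called higher and 3 lower.

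Across the 14 groups with 2 libraries, the members formed loose sets that changed when MEF and ESC were left out. Pearson's r of the group means over 14 groups and over the 12 reprogramming groups was 0.94 and 0.96 for Phgdh with Aldh18a1, 0.64 and 0.94 for Psat1 with Phgdh, 0.72 and 0.88 for Atf4 with Atf5, and 0.84 and 0.77 for Trib3 with Chac1. Atf5 with Phgdh went from 0.26 to -0.85, and Trib3 with Psat1 from -0.23 to -0.8. Groups of a day share that day and were made from the same 2 library numbers, and MEF and ESC add 1 point each, so these values are a description.

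The genes most alike in pattern were named by the highest r over the same 14 groups among all tested genes. They were Usp29 (0.992) for Asns, Vasn (0.98) for Atf5, Rhob (0.979) for Ddit3, Cpxm1 (0.977) for Trib3 and Rrbp1 (0.968) for Chac1. For Phgdh and Aldh18a1 they were Slitrk5 (0.959) and Armcx2 (0.959), for Atf4 Klf13 (0.952), for Psat1 Ankzf1 (0.926) and for Sesn2 Ttll1 (0.902).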

How the data were processed

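Total RNA came from Trizol extraction and went into Illumina TruSeq libraries, per the labels' protocols. The authors used Bowtie and RSEM with mm10, per the submitters' processing notes, with versions, annotation and counting strand not given in the sources used here. Each deposited table, per the file headers, lists for every gene the expected count with its TPM and FPKM. Reads matching more than 1 gene are divided by RSEM's model, so counts of near-identical genes are estimates. The deposited FPKM was not used. Of 29267 gene identifiers, 28756 were found in GENCODE mouse release 21 (mm10), which gave symbols and positions, and the 511 without a match took no more than 0.392% of any library's counts.

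Expected counts were rounded and tested with edgeR's quasi-likelihood test (edgeR 4.0.16, limma 3.58.1, R 4.3.3; TMM, filterByExpr, 1 mean per group, two-sided) over the 28 libraries of the 14 groups of 2, in 15 contrasts, with Benjamini-Hochberg adjustment over 14914 genes and a threshold of 0.05. The 12 reprogramming groups were averaged with equal weight within a day. The SE is the size of the log2 difference over the square root of F, which is unreliable where that difference is very small. The script was tested on simulated data. Single MEF libraries were compared on log2(CPM + 0.5), and ratios carry exact binomial 95% intervals for counting error only. In each library 3 counts were between 0.412 and 0.826 CPM. The labels do not state whether both libraries of a group are from different cultures; p-values therefore reflect only how these libraries vary, possibly for technical reasons.

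Differences between libraries 0824 and 0826 correlated across genes between groups of day 3 (r from 0.366 to 0.524 over 15 pairs of groups) and of day 8 (0.351 to 0.706, 15 pairs), and little across days (-0.01 to 0.182, 36 pairs) or between MEF and reprogramming groups (-0.011 to 0.314, 12 pairs). Numbers were therefore taken to pair libraries within a day, and the block within each day is given where it changes a call. Alternatives were DESeq2 1.42.0, its size factors in edgeR, no filter, limma on the deposited TPM as log2(TPM + 1), both blocks, no ESC, other pseudocounts and each library left out.

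The members and the gene lists were chosen with earlier results of these data known. All 10 members are named, and from each list the counts of calls and at most the 3 called genes with the largest log2 difference, plus the most correlated of the 3 nearest genes computed for each member.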

Additional observations from a re-analysis of the deposited data

How the results depend on the processing

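Of the counts of members called or past 2-fold, 120 were within 1.5 times their reported value under alternatives other than leaving 1 library out of the test, and 5 were not. With the replicate block within each day, Tet1CD against Flag at day 8 and the change of the Tet1CD effect between days each had 1 member called (Sesn2) in place of 0. With MEF 0824 as the only untreated library, 1 member passed 2-fold with DMSO in place of 0 and 2 with Vc in place of 4. With a pseudocount of 2 CPM, 2 members in place of 4 passed 2-fold in day 3 Flag Vc cells against MEF with Vc. The replicate block also added Sesn2 in day 3 against MEF and in ESC against day 8, and the block within each day added Sesn2 and Asns in day 8 against MEF, Sesn2 in day 3 against MEF and in ESC against day 8, and Trib3 in day 8 against day 3; neither changed another call of a member named above. Leaving out 1 library at a time gave 5 to 7 members in day 3 against MEF, 5 to 6 in day 8 against MEF, 5 to 8 in ESC against MEF, 2 to 6 in ESC against day 8, 2 to 6 in day 8 against day 3 and 0 in the others; where 1 library of a group was left, it was assumed to vary like the other groups. The day 8 difference of Asns from MEF was -0.47 without MEF 0824 and changed sign, to 0.022, without MEF 0826. In day 8 against day 3, Psat1 lost its call with DESeq2's size factors in edgeR (adjusted p = 0.0635), Psat1 (0.0711) and Aldh18a1 (0.0625) without the filter, and Chac1 (0.0802) and Atf5 (0.0747) with limma on TPM; the cause was not tested. Trib3 and Chac1 in reprogramming cells rest on few counts, which limits what could be detected for them.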
